A study of Arabidopsis thaliana with 22 samples.

Results

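Seedlings of the Arabidopsis thaliana double mutant aitf1-1asr3-1 were compared with wild-type seedlings (WT, accession Col-0) at 0 h, the start of a time course whose treatment the labels do not name. The comparison takes the 3 mutant and 3 WT libraries labelled 0 h, which are 6 of 22 RNA-seq libraries in the series, and it covers every gene in the seedling count table. All 6 libraries are labelled as 10-day-old seedlings, and the mutant carries the aitf1-1 and asr3-1 alleles together. The submitters' growth notes give another age and their extraction notes speak of leaves, so age and tissue rest on the labels. No single mutant and no other double-mutant line was analysed here, so an effect of either allele and any other difference between the lines cannot be told apart. The series concerns a pair of trihelix transcription factors in plant defence, and at 0 h the comparison addresses which genes differ between the mutant line and WT before the time course proceeds.

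Trihelix factors are a plant family that binds GT-rich promoter elements, and ASR3 is known as a repressor of genes that respond to microbial patterns. Most of the genes that differed at 0 h had another feature in common, a rare kind of intron, so that kind is described here as background. Plant nuclei hold a major spliceosome and a minor one. The minor spliceosome removes U12-type introns, which it recognises by a long and nearly invariant 5′ splice site and by a branch site near the 3′ end. Such introns are few, and a gene that has one usually carries it among ordinary introns. Some U12-type introns begin with AT and end with AC in place of the usual GT and AG.

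An intron was counted as having a U12-type start when its first 8 bases, read on the strand of the gene, were GTATCCTT or ATATCCTT. In the TAIR10.1 annotation of RefSeq, 281 of 136184 introns (0.206%) on the nuclear chromosomes had these letters, of which 204 started with GT and 77 with AT. The branch letters CCTTAA or CCTTGA were searched on the same strand in the last 40 bases of each intron, and they occurred in 50.2% of these introns and in 1.57% of all introns. A match to letters is a description and does not show how an intron is spliced, and no match says only that the letters are not in the window.

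The first 20 bases of such introns, 5′ to 3′, are shown for genes on which the results turn, with the 8 letters in capitals. ECT4 and UBP20 are among the genes with the largest differences, ECT3 and UBP21 are their relatives, HDT4 and NHX6 have starts with AT, and PIR121 and AT3G59320 were lower in the mutant.
ECT4: GTATCCTTtgcctttgtttc
ECT3: GTATCCTTcattatctgtgt
UBP20: GTATCCTTcatcgattttta
UBP21: GTATCCTTttttaagtgttt
HDT4: ATATCCTTtctttcattgtc
NHX6: ATATCCTTaaaatcgagttt
PIR121: GTATCCTTtcttccagacat
AT3G59320: GTATCCTTcaaacaacaagg

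In TAIR10.1 these introns lie at chr1:20719775-20720024 on the plus strand (ECT4, intron 1 of 8), chr5:24559437-24559764 on the minus strand (ECT3, intron 1 of 6) and chr4:9940834-9940941 on the plus strand (UBP20, intron 3 of 7). Those of UBP21 (intron 3 of 8) and NHX6 (intron 3 of 21) lie on the minus strand at chr5:18967514-18967606 and chr1:29956361-29956485, and that of HDT4 (intron 3 of 6) lies on the plus strand at chr2:11862926-11863037. The introns of the genes that were lower lie on the minus strand at chr5:6102623-6102767 (PIR121, intron 10 of 26) and chr3:21925452-21925529 (AT3G59320, intron 6 of 10). Each lies in the coding part of its gene. The last 30 bases of the introns of UBP20 and UBP21 and of intron 3 of NHX6 hold the branch letters, in capitals below.
UBP20: gcattttgatttatCCTTAAgctgtcacag
UBP21: tatgaattggttatCCTTAAccaatcacag
NHX6: tgttgttttCCTTGAcgtacttgtttgcac

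The gene named by the asr3-1 allele and 1 other trihelix gene were lower in the mutant. ASR3 (AT2G33550) was at 12.9, 11.2 and 11.8 CPM (read counts relative to library size, scaled by edgeR's TMM factors) in the WT libraries and at 7.55, 7.97 and 6.45 CPM in the mutant libraries. The groups did not overlap, and the log2 fold change, mutant minus WT, was -0.71 (SE 0.13, edgeR quasi-likelihood adjusted p = 0.0172). That call was lost in 7 of the 14 alternative analyses, among them the fits without WT replicate 1 or 3 or mutant replicate 1 or 3 (adjusted p = 0.118, 0.0728, 0.0668 and 0.143), while the fold change stayed between -0.78 and -0.62. AT3G11100, a trihelix gene, was at 69.9, 70.3 and 70.4 CPM in WT and at 39.5, 43.9 and 40.3 CPM in the mutant, a fold change of -0.77 on the log2 scale (SE 0.08, adjusted p = 7.7e-05). It was called in all 14 alternatives. The reference names no AITF1 locus, so the gene of the aitf1-1 allele was not checked and AT3G11100 is given by its own identifier. Transcripts of both genes were counted in each mutant library. Of 26 trihelix genes tested, ASR3 and AT3G11100 were the called members, and the median log2 fold change of the 26 was -0.06.

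Across the transcriptome few genes differed, and most of those were higher in the mutant. Of 21028 genes tested, 75 were called at an adjusted p under 0.05 (0.357%), with 62 higher (0.295%) and 13 lower (0.0618%) in the mutant. The median log2 fold change was 0.68 for the higher and -0.77 for the lower genes. At least a 2-fold change was seen for 18 genes (0.0856%), of which 14 were higher. In all 75 genes the 3 mutant libraries lay entirely to one side of the 3 WT libraries. Of all genes tested, 5.11% had all mutant libraries above WT and 5.93% had them below. For higher and lower genes alike, a change in the share of a cell type and a change in RNA per cell cannot be told apart in these bulk samples.

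**Figure D1:**
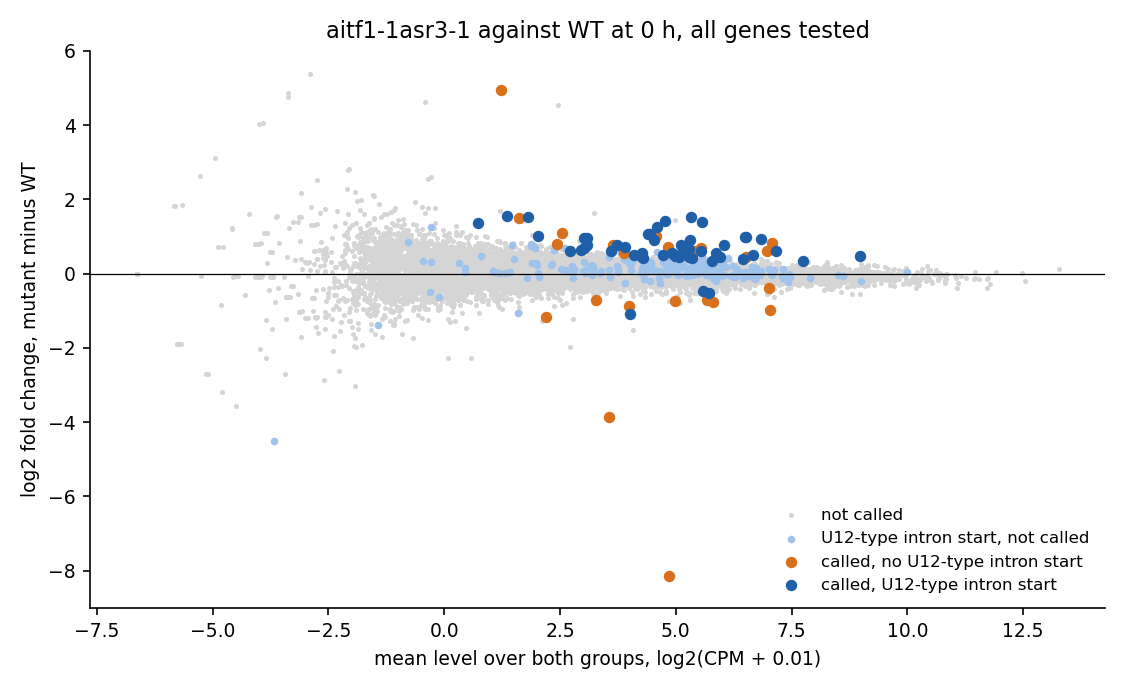
Each dot is 1 of 21028 genes, placed by its mean level over both groups, log2(CPM + 0.01), and by its log2 fold change at 0 h, mutant minus WT. Dark blue dots are the 52 called genes with a U12-type intron start, 49 of them above the zero line, orange dots are the other called genes, and light blue dots are genes with such an intron that were not called.

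The higher genes were mostly genes with a U12-type intron start. Such an intron was annotated in 49 of the 62 higher genes (79.0%), in 3 of the 13 lower genes, and in 251 of the 21028 genes tested (1.19%). The class was chosen after the higher genes were seen, so these shares are a description and carry no test. The other 13 higher genes all have introns. In 5 of them an intron begins with GTATCC or ATATCC without the following TT, and 8 hold neither form. In the 49 genes, all 56 such introns lie in the coding part, and their median length was 111 bases, against 116 bases for the 217 such introns of genes that were not called.

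The difference was not the same in each gene of the class. Of the 251 tested genes with a U12-type start, 49 were higher (19.5%), 3 were lower and 199 were not called. Their median log2 fold change was 0.14 and the central 80% lay between -0.09 and 0.75, beside a median of 0.01 for all genes tested. The median was 0.07 for members above the median CPM of the class (67.2% positive) and 0.21 for the rest (85.7% positive). The median WT level was 27.9 CPM in the class and 16.7 CPM over all genes tested, a difference in level that the shares called do not allow for. The fold change was positive in 192 of the 251 (76.5%), against 52.3% of all genes tested. All 3 mutant libraries lay above all 3 WT libraries in 101 of the 251 (40.2%), against 5.11% of all genes. Both shares include the 49 higher genes that led to the class, in each of which the groups did not overlap. The shares are therefore partly set by that choice. The 199 genes not called had a median of 0.07.

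Genes with a shorter match to the same start had smaller medians. Among 202 tested genes with the first 6 letters alone, 5 were higher (2.48%, against 0.295% of all genes tested) and 2 were lower. Their median log2 fold change was 0.02. All mutant libraries lay above all WT libraries in 15.3% of them, against 5.11% of all genes. The 17315 other tested genes with an intron held 8 higher (0.0462%) and 6 lower genes, with a median of 0.01. The class median was 0.18 for genes with an AT start (16 of 74 higher) and 0.12 for those with a GT start (36 of 185 higher), and 8 genes that hold both are counted in each. Genes with branch letters in such an intron had 19 of 130 higher (median 0.10), and those without had 30 of 121 higher (median 0.18). With 2 or more such introns, 7 of 24 genes were higher (median 0.21), and with 1 such intron 42 of 227 were (median 0.13). These differences between subclasses were not tested.

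**Figure D2:**
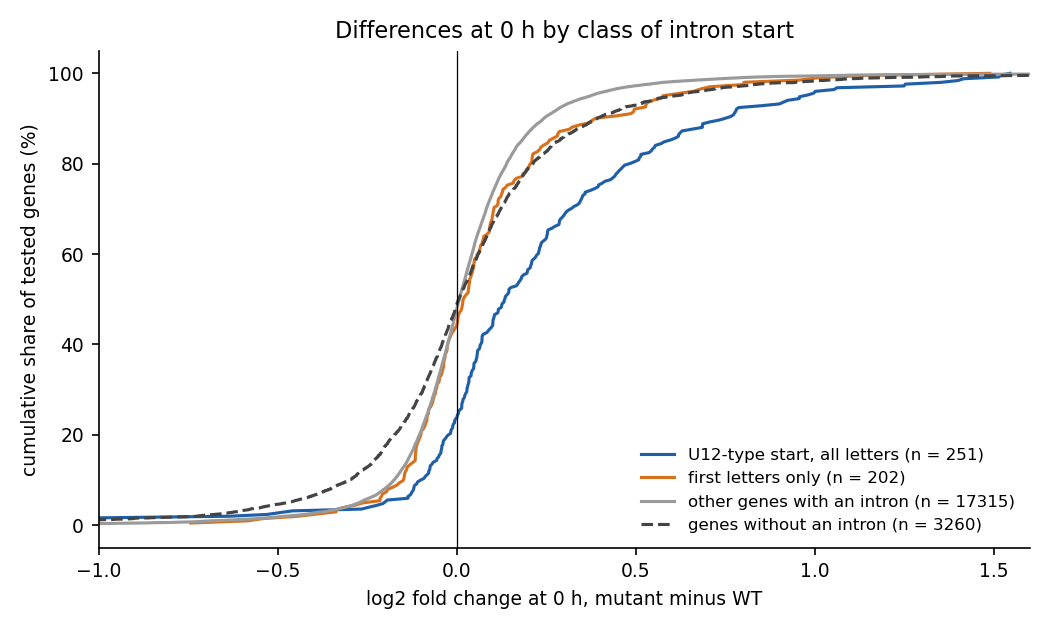
The x axis is the log2 fold change at 0 h, mutant minus WT, and the y axis is the cumulative share of tested genes in percent, with 1 line for each class of intron start. The line of the 251 genes with all 8 letters lies to the right of the other 3, with 76.5% of its genes above zero, while the 202 genes with the first 6 letters have 55.9% above zero.

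The class lay higher in every mutant library than in every WT library. As the median over the 251 genes of a library's deviation from the mean of the 6 libraries, in log2(CPM + 0.5), the WT libraries at 0 h were at -0.09, -0.06 and -0.08. The mutant libraries were at 0.07, 0.09 and 0.09. Deviations are taken from the mean of both groups, so they show the gap between the genotypes and not which of them moved. The median of all genes tested stayed between -0.00275 and 0.00685. Genes of the class that were not called at 0 h showed the same order, at -0.05 to -0.02 in WT and 0.04 to 0.05 in the mutant. A count per gene does not separate spliced from unspliced transcripts, so whether any of these introns was retained was not measured.

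**Figure D3:**
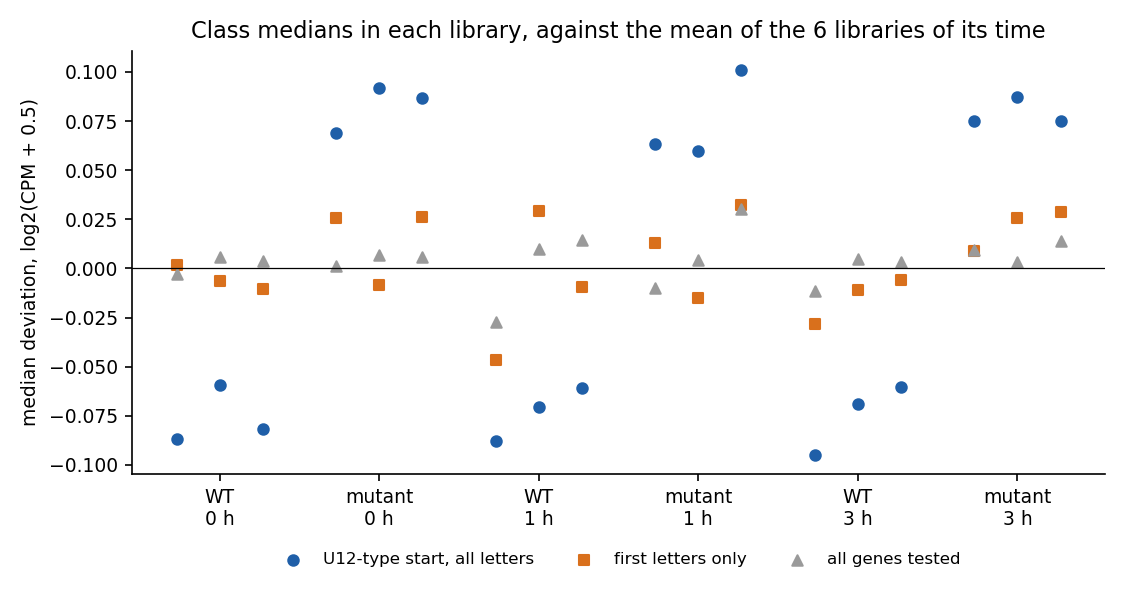
The y axis is the median deviation of a gene class from the mean of the 6 libraries of its time, in log2(CPM + 0.5), and each position on the x axis is 1 of 18 libraries. Genes with a U12-type start (circles) lie at -0.09 to -0.06 in the WT libraries and at 0.06 to 0.10 in the mutant libraries at 0, 1 and 3 h, while all genes tested (triangles) lie within -0.03 and 0.03.

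Among the higher genes, RNA readers and ubiquitin proteases included pairs of related genes. Several family lists here and below were drawn up around genes already known to differ, so their counts of called members are description only. Over all genes tested, 0.295% were called higher and 0.0618% lower. ECT4, which binds methylated adenosine in RNA, was at 24.4, 27.0 and 26.2 CPM in WT and at 70.2, 67.0 and 67.5 CPM in the mutant. It rose 2.64-fold, with closely spaced libraries in both groups (log2 1.40, SE 0.09, adjusted p = 1.8e-07). ECT3, a reader of the same family, rose from 115, 113 and 113 CPM to 165, 186 and 173 CPM (log2 0.62, SE 0.09, adjusted p = 0.00178). Both have the U12-type start in their first intron. Of 19 tested genes for readers, writers and erasers of this mark, ECT3 and ECT4 were called. ECT2 and ECT11 hold such an intron too and had log2 fold changes of 0.05 and 0.10, which did not pass the test.

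UBP20, a ubiquitin-specific protease, was at 14.2, 15.8 and 14.7 CPM in WT and at 41.7, 41.7 and 36.1 CPM in the mutant. The groups lay far apart, each with a narrow spread (log2 1.42, SE 0.08, adjusted p = 1.5e-07). UBP21 rose from 5.32, 6.42 and 6.49 CPM to 8.72, 9.30 and 10.1 CPM (log2 0.62, SE 0.11, adjusted p = 0.00828). The UBP21 call was lost in 4 alternatives, among them the fits without WT replicate 1 (adjusted p = 0.0748) or mutant replicate 3 (adjusted p = 0.0645). These were the called members among 26 tested ubiquitin-specific proteases, and also the members with a U12-type start, in intron 3 of each. The median log2 fold change of the 26 genes was -0.00292.

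MSH5, a protein of meiotic crossover formation, was the called member of 16 tested genes of mismatch repair and meiotic recombination. It was at 1.89, 2.13 and 1.40 CPM in WT and at 4.86, 5.65 and 4.98 CPM in the mutant (log2 1.51, SE 0.20, adjusted p = 0.000963). Introns 7 and 11 of its 32 carry the U12-type start. HEI10 and DMC1, meiotic genes that hold such an intron as well, had log2 fold changes of -1.05 and 0.00 and were not called (adjusted p = 0.815 and 1.0). RAD9, a subunit of a DNA damage checkpoint clamp, rose from 0.629, 1.19 and 0.934 CPM to 2.11, 2.98 and 1.99 CPM (log2 1.35, SE 0.26, adjusted p = 0.0235). The RAD9 call was lost in 5 alternatives, among them the fits without WT replicate 1 or 3 or mutant replicate 2 (adjusted p = 0.177, 0.123 and 0.208). AT5G63960, the catalytic subunit of DNA polymerase delta, rose by 1.01 on the log2 scale (SE 0.11, adjusted p = 9.4e-05). Its intron 5 carries the first 6 letters alone.

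HDT4, a plant-specific histone deacetylase, was at 12.5, 14.8 and 14.1 CPM in WT and at 26.8, 29.6 and 29.6 CPM in the mutant. Its groups lay apart and the log2 fold change was 1.05 (SE 0.14, adjusted p = 0.000814). Of 15 tested histone deacetylases it was the called member. Its relatives HDT2 and HDT3, which also hold a U12-type start, had log2 fold changes of 0.13 and 0.25 and neither was called (adjusted p = 0.983 and 0.358).

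Of 8 tested NHX sodium/proton antiporter genes, NHX5 and NHX6 were higher. NHX6, an endosomal antiporter, was at 12.1, 14.6 and 15.6 CPM in WT and at 30.4, 32.0 and 26.0 CPM in the mutant (log2 1.06, SE 0.11, adjusted p = 8.7e-05). NHX5, the other endosomal member, rose from 86.6, 86.7 and 77.6 CPM to 121, 120 and 117 CPM (log2 0.51, SE 0.07, adjusted p = 0.00101). In both genes introns 3 and 10 start with ATATCCTT, and intron 15 starts with GTATCC alone. The 6 other tested members of the family, which hold no such start, had log2 fold changes of -0.20 to 0.15 and were not called.

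SAC8, a phosphoinositide phosphatase of the endoplasmic reticulum, was at 85.1, 75.8 and 76.4 CPM in WT and at 156, 140 and 153 CPM in the mutant (log2 0.92, SE 0.07, adjusted p = 4.7e-07). Its intron 7 starts with ATATCCTT and ends with AA. Among 9 tested SAC genes it was the called member. SAC7 and SAC4, with such introns, had log2 fold changes of 0.24 and -0.08 that did not pass the test. SAC6 holds one too and lay at or below 0.198 CPM in WT and at 0 CPM in the mutant libraries, too few counts to give a fold.

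**Figure D4:**
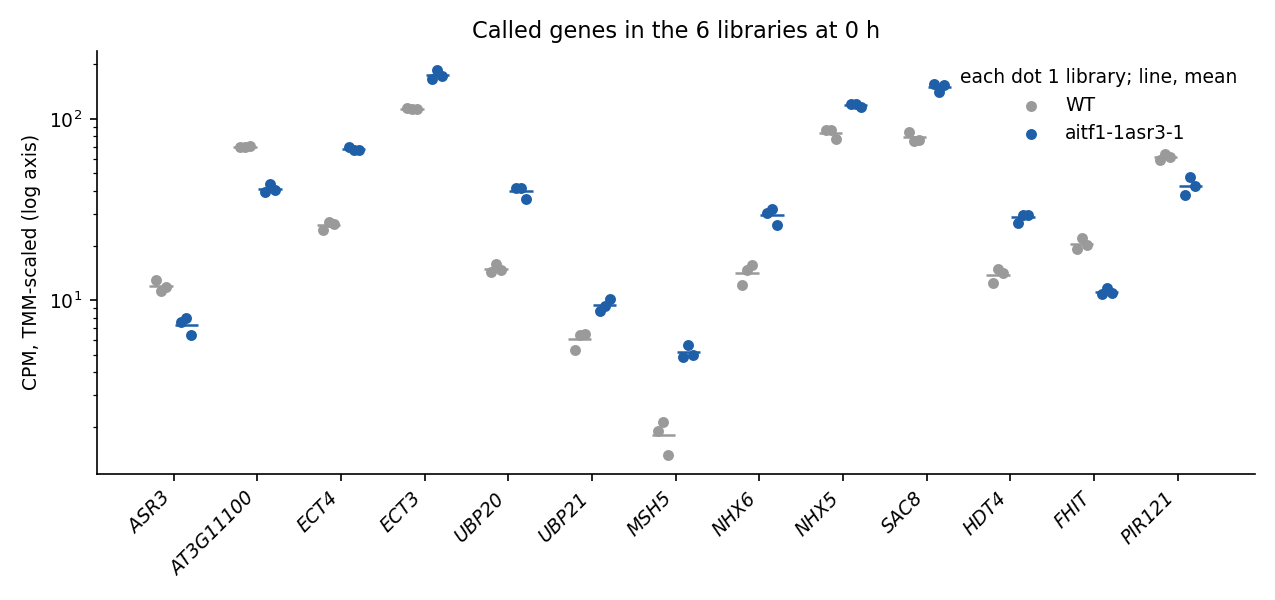
The y axis is CPM after TMM scaling on a log axis, each dot is 1 library at 0 h and each line is a group mean (3 libraries). For ECT4, ECT3, UBP20, UBP21, MSH5, NHX6, NHX5, SAC8 and HDT4 the blue mutant dots all lie above the grey WT dots, and for ASR3, AT3G11100, FHIT and PIR121 they all lie below.

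The other large rises fell on genes known mainly by their domains. AT2G40700, of the P-loop nucleoside triphosphate hydrolase superfamily, was at 23.3, 18.5 and 20.3 CPM in WT and at 58.8, 60.3 and 58.9 CPM in the mutant (log2 1.52, SE 0.09, adjusted p = 1.5e-07). AT5G65180, an ENTH/VHS domain protein, rose by 1.25 (SE 0.08) and AT2G43210, of the ubiquitin-like superfamily, by 1.00 (SE 0.07), and both were called in all 14 alternatives. AT5G52950, annotated as a LIM domain protein, rose by 1.00 (SE 0.17, adjusted p = 0.00903), a call lost in 5 alternatives, among them the fits without WT replicate 2 or 3 or mutant replicate 2 (adjusted p = 0.0655, 0.0745 and 0.0829). All of these hold a U12-type start.

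Some of the higher genes had no U12-type start. AT2G33205, one of 5 tested genes annotated with a Serinc domain, was at 1.26, 1.68 and 1.87 CPM in WT and at 5.21, 5.07 and 3.32 CPM in the mutant (log2 1.49, SE 0.27, adjusted p = 0.0168). That call was lost in 7 alternatives, with an adjusted p of 0.0556 to 0.135 without any 1 WT library or without mutant replicate 1 or 2. Its intron 3 starts with GTATCC alone, while intron 3 of its called relative AT3G24460 starts with GTATCCTT (log2 0.61, SE 0.13, adjusted p = 0.0489). APC11, a subunit of the anaphase-promoting complex, rose from 3.49, 4.15 and 3.63 CPM to 8.08, 9.08 and 6.74 CPM (log2 1.08, SE 0.15, adjusted p = 0.00097) and overlaps AT3G05880 on the other strand, so its counts are uncertain without strand. It was the called member of 17 tested genes of that complex and its activators. AT4G08093, a transcribed pseudogene, was at 0, 0.148 and 0.26 CPM in WT and at 5.62, 4.81 and 3.13 CPM in the mutant (fitted log2 fold change 4.95, SE 0.74, adjusted p = 0.00455). The fitted value was 5.72 without WT replicate 3, and the call was lost with the 6 libraries and a replicate block (adjusted p = 0.0811).

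The following genes were chosen after their values and intron starts were seen, so they are described without bearing on the class. The drought-responsive (Di19) family, zinc-finger proteins first described in water stress, had 6 tested genes, each with a U12-type start, and 4 were higher, where 19.5% of the whole class and 0.295% of all genes were. AT3G05700 rose from 16.99, 14.2 and 17.1 CPM to 31.4, 27.6 and 31.3 CPM (log2 0.90, SE 0.09, adjusted p = 4.8e-05). AT5G26990, AT3G06760 and HRB1 rose by 0.54, 0.51 and 0.50, and AT1G02750 and AT4G02200 had 0.25 and 0.22 without passing the test. The 8 higher genes with neither form of the start were AT4G08093, APC11, AT1G29600, ILA, AT4G04200, TTL, AT1G10320 and AT2G30740. The 3 tested genes annotated as U11/U12 small nuclear ribonucleoprotein subunits, parts of the minor spliceosome, had log2 fold changes of -0.29 to 0.07, with 0 called by edgeR or DESeq2 and 0 at an unadjusted p under 0.05. These 3 were grouped by that annotated name and are not a full list of minor-spliceosome genes. Whether other genes of that machinery differed was therefore not settled here.

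The genes that were lower were fewer and more varied. AT3G01345, an uncharacterised protein gene, was at 9.33, 16.8 and 147 CPM in WT and at 0.293, 0.0890 and 0.237 CPM in the mutant. WT replicate 3 was far above the other WT libraries, and the mutant libraries were all near zero (log2 -8.14, SE 1.25, adjusted p = 0.00334). The log2 fold change was -6.001 without WT replicate 3, and the adjusted p was 0.206 with the 6 libraries alone. AT5G24240, a phosphatidylinositol 4-kinase gamma-like gene, was at 29.9, 26.3 and 9.92 CPM in WT and at 1.52, 1.42 and 1.57 CPM in the mutant (log2 -3.87, SE 0.58, adjusted p = 0.00269). It overlaps AT5G24230 on the other strand, so its counts are uncertain without strand.

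FHIT, a nucleotide hydrolase of the HIT-domain group, fell from 19.1, 22.0 and 20.04 CPM to 10.8, 11.7 and 10.9 CPM (log2 -0.87, SE 0.11, adjusted p = 0.000612). It was the called member of 6 tested HIT-domain genes, and it overlaps AT5G58230 on the other strand. La2, an RNA-binding La protein, fell by 0.74 on the log2 scale (SE 0.10, adjusted p = 0.00126). AT3G50845, a MIP18 family gene, fell by 1.17 (SE 0.21, adjusted p = 0.0118) and AT5G11330, a putative oxidoreductase, by 0.71 (SE 0.13, adjusted p = 0.0179), calls that were lost in 5 and 6 alternatives. For AT3G50845 these include the fits without WT replicate 1 or 3 or mutant replicate 1 (adjusted p = 0.0556 to 0.0678), and for AT5G11330 those without WT replicate 1 or 3 or mutant replicate 1 or 2 (adjusted p = 0.073 to 0.148). NPY5, an NPH3 family gene, fell by 0.39 (SE 0.08, adjusted p = 0.0489), and its call was lost in 11 alternatives, including each fit without 1 library (adjusted p = 0.111 to 0.253).

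AT3G41979, a ribosomal RNA gene, was at 175, 187 and 161 CPM in WT and at 90.2, 86.9 and 86.7 CPM in the mutant (log2 -0.99, SE 0.16, adjusted p = 0.00455). Ribosomal RNA genes exist in near-identical copies, and how reads that match several places were counted is not given in the sources used here, so this value is uncertain.

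The lower genes with a U12-type start were PIR121, AT3G59320 and AT4G12790. PIR121, part of the WAVE complex that promotes actin branching, was at 59.3, 64.4 and 61.7 CPM in WT and at 37.9, 47.9 and 42.5 CPM in the mutant (log2 -0.53, SE 0.08, adjusted p = 0.00288). It was the called member of 17 tested WAVE and ARP2/3 genes and the member with such an intron. AT4G12790, a P-loop hydrolase gene, fell by 0.46 (SE 0.08, adjusted p = 0.00764). The PIR121 call was lost with the 6 libraries alone, with and without a replicate block (adjusted p = 0.113 and 0.14), and that of AT4G12790 in both of these and without mutant replicate 2 (adjusted p = 0.0519 to 0.14).

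AT3G59320 and AT3G59340 belong to a row of 4 solute carrier genes (DUF914) on chromosome 3, all with a U12-type start, and they moved in opposite directions. AT3G59320 fell from 20.7, 23.7 and 21.5 CPM to 10.4, 11.5 and 9.39 CPM (log2 -1.07, SE 0.13, adjusted p = 0.000387). AT3G59340 rose from 1.03, 1.58 and 1.298 CPM to 3.51, 4.36 and 3.60 CPM (log2 1.54, SE 0.28, adjusted p = 0.0180). The AT3G59340 call was lost in 6 alternatives, among them the fits without WT replicate 1 or 3 or mutant replicate 2 or 3 (adjusted p = 0.0513 to 0.151). AT3G59310 and AT3G59330 had log2 fold changes of 0.37 and -0.14 and were not called. Reads may be shared among these related neighbours, so the split between them is uncertain.

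The differences at 0 h were looked up in the libraries of 1 and 3 h, which did not enter the contrast at 0 h but share its estimate of the spread. All 62 higher genes had positive log2 fold changes at both times, with medians of 0.57 at 1 h and 0.56 at 3 h, and 36 and 40 of them (58.1% and 64.5%) were called higher there. Of all genes tested, 0.195% and 0.224% were called higher at those times. All 13 lower genes had negative fold changes at both, with 9 and 8 called lower, beside 0.0666% and 0.0523% of all genes. Of the 75 genes, 44 were called at both times, while 22 higher and 4 lower genes were called at neither. A direct test of the difference at 0 h against that at 1 or 3 h (edgeR interaction) called 0 genes in each case, while 474 and 853 genes (2.25% and 4.06%) had an unadjusted p under 0.05 and DESeq2 called 0, so no gene was shown to differ at 0 h alone.

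ECT4 illustrates the genes that kept their difference. It was at 29.6, 32.0 and 34.5 CPM in WT and 67.1, 73.7 and 75.3 CPM in the mutant at 1 h, and at 25.7, 32.4 and 30.4 against 62.8, 73.0 and 69.0 CPM at 3 h. No WT library reached a mutant library at any time. AT3G41979 had a log2 fold change of -1.07 at 1 h and -0.01 at 3 h, where WT was at 130, 107 and 143 CPM and the mutant at 132, 125 and 120 CPM (interaction adjusted p = 0.996).

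The intron class was shifted at the later times as well. At 1 h, 31 of 41 higher genes (75.6%) and at 3 h, 36 of 47 (76.6%) had a U12-type start, and the medians of the 251 genes were 0.14 at both times. Most of those genes are the ones called at 0 h. Of the 5 genes higher at 1 h and not called at 0 h, 3 had such a start, and of the 7 at 3 h, 5 had one.

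**Figure D5:**
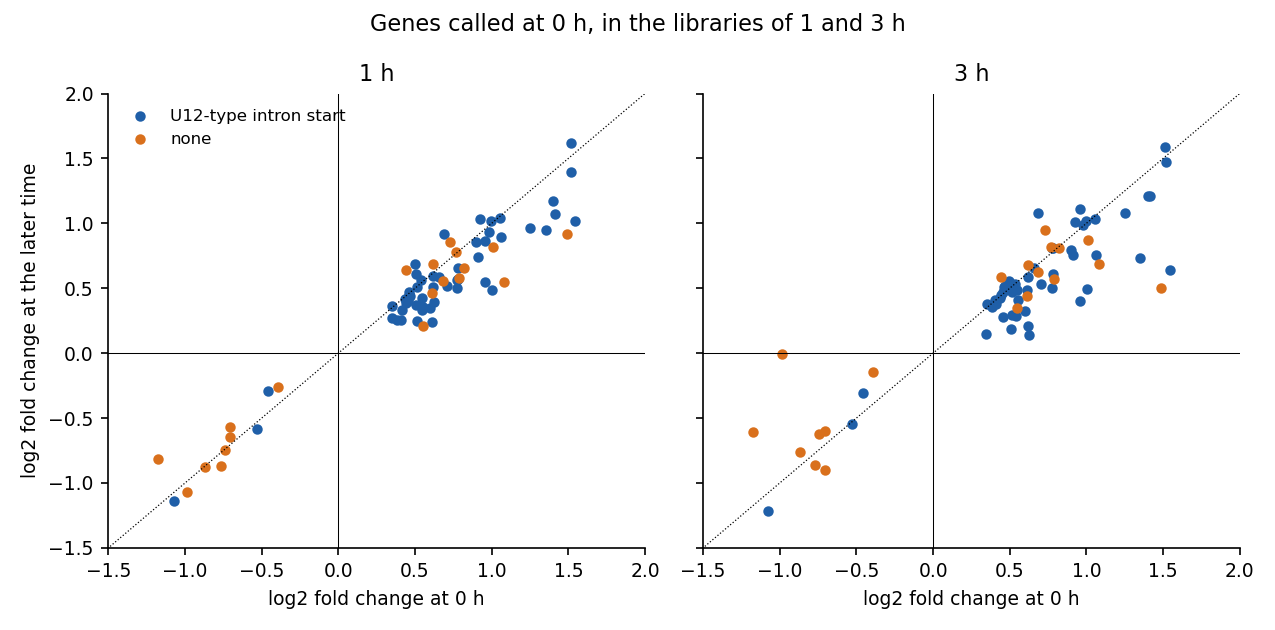
The x axis is the log2 fold change at 0 h and the y axis that at 1 h (left) or 3 h (right), mutant minus WT, for the genes called at 0 h, with blue for a U12-type intron start and a dotted line of equal values. 3 called genes with differences beyond the axes are not drawn, and every drawn gene has the same sign at each time.

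Lists of defence and hormone genes held no called member at 0 h apart from the trihelix genes. Of 23 lists with 448 genes, 417 were tested and 14 were called, 10 higher and 4 lower (2.40% higher, against 0.295% of all genes), and 9 of the 10 higher members have a U12-type start. Several lists were drawn up around genes already known to differ here, so that share is no independent result. DWA3, an abscisic acid signalling gene outside these lists and named after its value was seen, rose by 0.60 on the log2 scale (SE 0.09, adjusted p = 0.00182). The 13 lists without a call covered early pattern-triggered genes, pattern receptors, salicylic acid, jasmonate, ethylene, abscisic acid with drought and cold, aliphatic and indole glucosinolates, photosynthesis, heat shock, flavonoids, the clock and the WRKY factors. Of their 258 tested members 0 were called by edgeR, 10 had an unadjusted p under 0.05 and 1 was called by DESeq2, the ethylene transcription factor EIN3 (AT3G20770, DESeq2 log2 -0.23, adjusted p = 0.0285).

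Among 21 early pattern-triggered genes the median log2 fold change was 0.02. FRK1, a receptor kinase gene used as a marker of that response, was at 7.56 ± 9.09 CPM in WT and 4.13 ± 2.27 CPM in the mutant (SD, n = 3), and its WT libraries spread more widely than the groups differed. MPK3, an immune MAP kinase gene, was at 121 ± 17.1 and 127 ± 18.4 CPM (SD, n = 3). For 23 salicylic acid genes the median was 0.04, with NPR1, a salicylic acid receptor, at 43.2 ± 3.57 and 44.9 ± 2.83 CPM (SD, n = 3). The 23 jasmonate genes had a median of -0.05, the 19 ethylene genes -0.09 and the 59 WRKY genes -0.02.

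The widest list medians were -0.18 for 20 abscisic acid, drought and cold genes, 0.19 for 18 aliphatic glucosinolate genes and -0.16 for 12 clock genes. TOC1, an evening clock gene, was at 412 ± 32.9 CPM in WT and 343 ± 25.1 CPM in the mutant (SD, n = 3, log2 -0.26, adjusted p = 0.52), and BCAT4, which starts methionine chain elongation for glucosinolates, was at 6.64 ± 2.12 and 10.4 ± 1.38 CPM (log2 0.65, adjusted p = 0.932). The indole glucosinolate and camalexin list had a median of 0.08 over 17 genes, photosynthesis -0.09 over 25, pattern receptors -0.01 over 18, heat shock 0.09 over 8 and flavonoids -0.05 over 5.

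The called genes were spread over the genome. Between 0.308% and 0.435% of the tested genes were called on each of the 5 chromosomes. Within 1 Mb of ASR3 1 of 441 tested genes was called, and within 1 Mb of AT3G11100 0 of 495 by edgeR or DESeq2, with 26 at an unadjusted p under 0.05, the gene at the centre of each window left out. Within 3 Mb the counts were 6 of 1265 and 5 of 1471, all higher. No called genes were next to each other in the annotation. Of the 75 genes, 24 (32.0%) overlap another gene on the opposite strand, against 26.9% of tested genes. Besides those flagged above, they include ECT3, NHX5, AT5G63960, La2, PIR121, AT4G12790, AT3G05700 and AT5G26990. AT2G43210 and AT3G24460 overlap genes on their own strand. The counts of all these genes carry the same uncertainty.

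Libraries at 0 h held between 17120842 and 21635956 counts, and 1 count was worth 0.0445 to 0.0585 CPM. Nothing in the labels says that replicates were grown separately, so p-values measure only how far these libraries scatter, and that scatter may be technical. For pairs of replicates, chi-square divided by its degrees of freedom was 8.82 to 16.8, above the 1 of pure counting error. The seedling label was checked by markers. Root, guard cell, phloem, trichome, epidermis and dividing-cell markers were counted in both groups, and the summed root markers were at 971 to 1420 CPM in WT and 1190 to 1450 CPM in the mutant. The widest marker medians were a log2 fold change of -0.40 for 1 tested shoot meristem marker and -0.38 for 3 senescence and starvation markers. Markers of flowers (4 genes) and of seed storage (3 genes) did not pass the count filter and were not tested. Of 28 tested markers 0 were called by edgeR or DESeq2 and 0 had an unadjusted p under 0.05.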

How the data were processed

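The authors deposited raw read counts, whole numbers without scaling, for 33318 genes in 18 seedling libraries (6 groups of 3). The tools named are HISAT2 2.1.0, featureCounts and Subread 1.6.5 on genome build TAIR10, per the submitters' processing notes. Annotation release, strand setting and the treatment of reads with several matches were not given in the sources used here, so overlapping and near-identical genes are uncertain. The 4 leaf libraries were not used here.

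Genes were filtered with filterByExpr (minimum count 10), which left 21028, and 7371 genes were at 0 in all seedling libraries. All 18 libraries were scaled by TMM factors and fitted together in edgeR 4.0.16 (R 4.3.3, limma 3.58.1) with glmQLFit and glmQLFTest, 12 residual degrees of freedom and no replicate term. P-values are two-sided and adjusted by Benjamini and Hochberg over all genes tested, with calls under 0.05. Standard errors were derived from the F statistics. The steps were also run on simulated data, with changes placed only in genes of higher counts and each gene's spread set by the trend with level. That run does not cover calls of genes with few counts or with a spread of their own. DESeq2 1.42.0, other scalings, filters, samples and a replicate block were alternatives. The deviation of each gene from its group mean in log2 CPM was correlated across genes between WT and mutant libraries at 0 h. Libraries of the same number gave r of -0.0368, 0.285 and 0.0626, and the other pairs gave -0.335 to 0.223. The numbers were not taken as pairs.

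The genes to name were ASR3, AT3G11100, the 15 highest called genes of at least 1 CPM and up to 15 of the lowest (all 13 genes called lower), called members of the lists, and the extremes and most abundant members of lists with few calls. Members and lists were chosen with earlier results of these data known, and the intron classes after the calls were seen. Introns, names and coordinates come from the TAIR10.1 RefSeq annotation and genome, which matched 21007 of the tested identifiers.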

Additional observations from a re-analysis of the deposited data

How the results depend on the processing

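In the 6 libraries at 0 h alone, 34 genes were called (28 higher, 6 lower), 11 at least 2-fold, and 21 higher genes had a U12-type start. DESeq2 called 113 genes, 26 lower, and 74 were called in the same direction at 1 h. The replicate numbers were not taken as pairs, and the labels do not say whether they pair the samples. With all 18 libraries the replicate block gave 71 calls (59 higher, 12 lower, 44 higher with a U12-type start). With the 6 libraries alone the replicate block gave 22 (16 higher, 6 lower), with 9 at least 2-fold, 6 list members and 12 with a U12-type start. Leaving out 1 library gave 48 to 63 calls, 39 to 51 of them higher and 9 to 12 lower, 11 to 22 at least 2-fold, and 30 to 39 higher genes with a U12-type start. The lowest were without WT replicate 3 (48 calls, 39 higher, 30 with the start), with 41 higher and 32 with the start without WT replicate 1, 32 with the start without mutant replicate 3 and 11 at least 2-fold without mutant replicate 2. The median log2 fold change of the 251 genes was 0.12 to 0.17 over the 14 alternatives. The intron results were added after the data were seen. Of 32 named called genes, 14 were called in all 14 alternatives and 0 changed direction, 13 lost the call with the 6 libraries alone and 0 with DESeq2. APC11 lost it with the 6 libraries alone (adjusted p = 0.0839), and MSH5, NHX5, NHX6 and FHIT with those libraries and a replicate block (adjusted p = 0.0659 to 0.118). Depth limits genes of few counts, since 1 count is worth 0.0445 to 0.0585 CPM.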
